A study of Mus musculus with 4 samples.

Results

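The wild-type (WT) contact map of the Epha4 region in mouse distal limb buds was described on its own, as the normal domain layout of this stretch of chromosome 1. All pairs of bins of 10 kb between 71000001 and 81000000 (build mm9) in the WT library were taken, which makes 500500 of the 2002000 pairs measured in the 4 libraries of the study. The choice used the library and the position alone, and no measured value. The libraries were made by capture Hi-C, in which fragments that lay close together in the fixed nucleus are joined by ligation and counted as pairs, after probes have enriched a chosen region. The embryos were at E11.5, and each genotype had 1 library: WT and the homozygous mutants DelB, DelBs and InvF, all from the same tissue and age. From the published description, DelB and DelBs are deletions and InvF is an inversion. The mutants served here only to see whether the WT pattern returned in other libraries, at pairs of bins outside 74830001 to 78060000, the stretch that holds every rearrangement. The number of embryos in a library was not stated in the sources used here. A single library per genotype gives no spread between embryos, so there are no p-values. Intervals are exact at the 95% level and take in only the error of counting. A map of a whole tissue is a mean over its cells, so a contact made in few cells and a weak contact made in many cannot be told apart, and contact counts hold no marker by which the tissue label could be checked.

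Mammalian chromosomes fold into topologically associating domains, stretches that contact themselves more often than their neighbours, and the borders between them limit which enhancers meet which promoters. Many borders hold sites of the DNA-binding protein CTCF, at which the ring-shaped cohesin complex stops while it reels in DNA. A fixed stop of this kind shows in a contact map as a stripe, a bin that contacts a long run of partners on one flank, and a pair of stops shows as a spot at the corner of a domain. Epha4 encodes an ephrin receptor tyrosine kinase of the developing limb and nervous system, and changes of domain borders around it are known from limb malformations. In the RefSeq gene order of GRCm38 the region runs from Fn1 (fibronectin) over Wnt6 and Ihh (secreted signalling proteins) and Slc4a3 (an anion exchanger) to Epha4 and Pax3 (a transcription factor of muscle and neural crest precursors). There are 34 protein-coding genes between Fn1 and Wnt6, 5 between Wnt6 and Ihh and 25 between Ihh and Slc4a3, but 0 between Slc4a3 and Epha4 and 0 between Epha4 and Pax3. The maps are in mm9, for which no gene positions were used here, so domains are named by number and position and not by gene.

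The WT library held 5155274 counts, and 64.8% of the pairs of bins had at least 1. Pairs under 20 kb apart took 33.0% of the counts, pairs from 20 kb to 200 kb 30.4%, pairs from 200 kb to 1 Mb 23.2%, pairs from 1 to 2 Mb 7.99% and longer pairs 5.39%. The mean count per pair was 285 at 20 kb, 64.5 at 100 kb, 16.7 at 500 kb, 7.79 at 1 Mb, 2.62 at 2 Mb and 0.581 at 5 Mb. On log axes the slope of this decay was -0.87 from 20 kb to 200 kb, -1.003 from 200 kb to 1 Mb and -1.81 from 1 to 5 Mb, so contacts thinned out much faster beyond 1 Mb. Single pairs beyond that distance rest on a few counts, and longer contacts were therefore summed over domains. The median bin had 9225 counts, and the 5th and 95th percentiles were 3594 and 14618. There were 4 bins under 10% of the median, starting at 78490001, 79030001, 79960001 and 80680001, which were left out. Below, observed over expected is the count divided by the mean WT count at the same distances. Because bins differed in coverage, a coverage-matched value is set beside it, in which the expected level also carries a factor per bin that brings every bin to its observed sum.

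**Figure D1:**
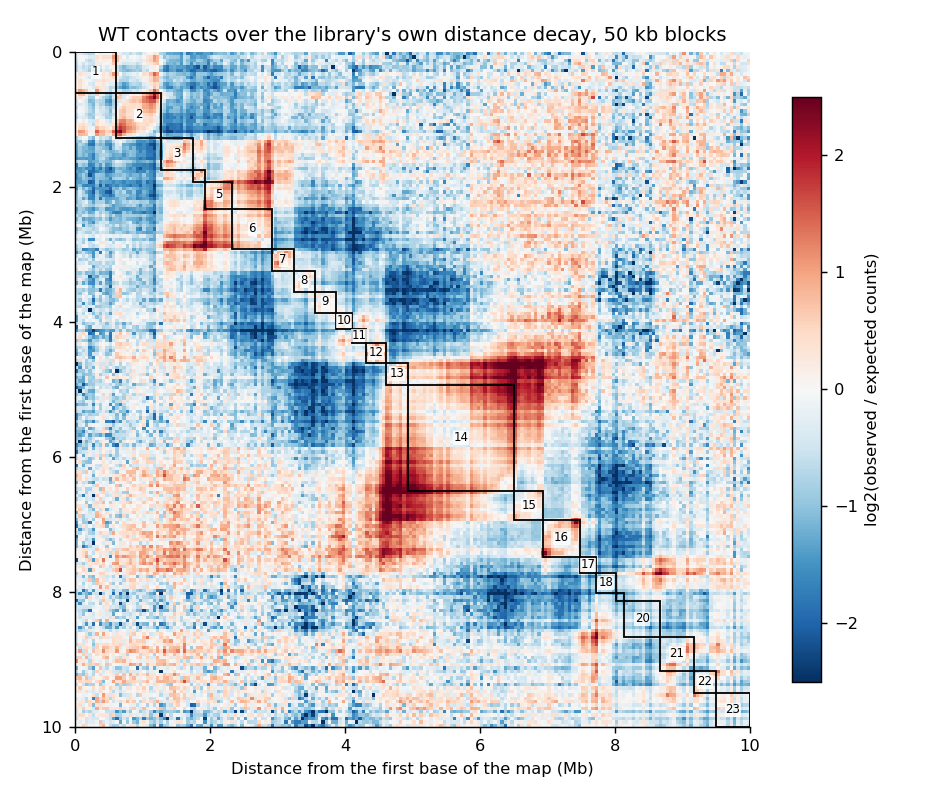
Contacts of the WT library over its own distance decay in blocks of 50 kb, on a log2 scale, with both axes in Mb from the first base of the map and the 23 domains outlined and numbered. Domains 13, 14 and 15 share a red square that is deepest away from the diagonal, at 5.43 times the decay for domains 13 and 15, and blue fields lie between domain 13 and domains 8 to 11 and between domains 14 to 16 and domains 18 to 20, while domain 12 meets domain 15 at 3.26.

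Domain borders were located with an insulation score, the log2 of the mean count that crosses a position within 200 kb relative to the map mean, and a border was a minimum at least 0.2 below the highest score within 200 kb on each flank. This gave 22 boundaries and 23 domains, with depths from 0.22 to 1.76 and a median of 0.58. The 5 deepest lay after 72280000 (depth 1.76), 73920000 (1.65), 75610000 (1.49), 77940000 (1.13) and 77510000 (1.10). The depths moved with the window: with 100 kb the boundary after 72280000 had 0.39, that after 77510000 0.76 and that after 77940000 0.78, while that after 73920000 had 1.68. With 400 kb the last 2 of the 5 had 0.43 (77510000) and 0.72 (77940000). The shallowest lay after 79020000 (0.22), 73330000 (0.22), 75930000 (0.23), 75100000 (0.24) and 79140000 (0.24). Just outside the limit were positions after 73660000 (0.199), 78220000 (0.12) and 76620000 (0.12). Deeper boundaries were found in more of 6 calls on this library (windows of 100 kb, 200 kb and 400 kb, on counts and on balanced values). Of the 22, 10 boundaries were found in all 6, 13 in at least 5 and 16 in at least 4. The 10 had a median depth of 1.02 and the others 0.30. All 6 calls used the same reads and asked for a depth of 0.2, and 1 of them defined the boundaries. Deep minima therefore pass more calls by construction, and the tally is not independent support. The deepest boundary, after 72280000, was in 5 of the 6, since balanced values with the 100 kb window did not give it, and the boundary after 79140000 was in 1 alone.

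**Figure D2:**
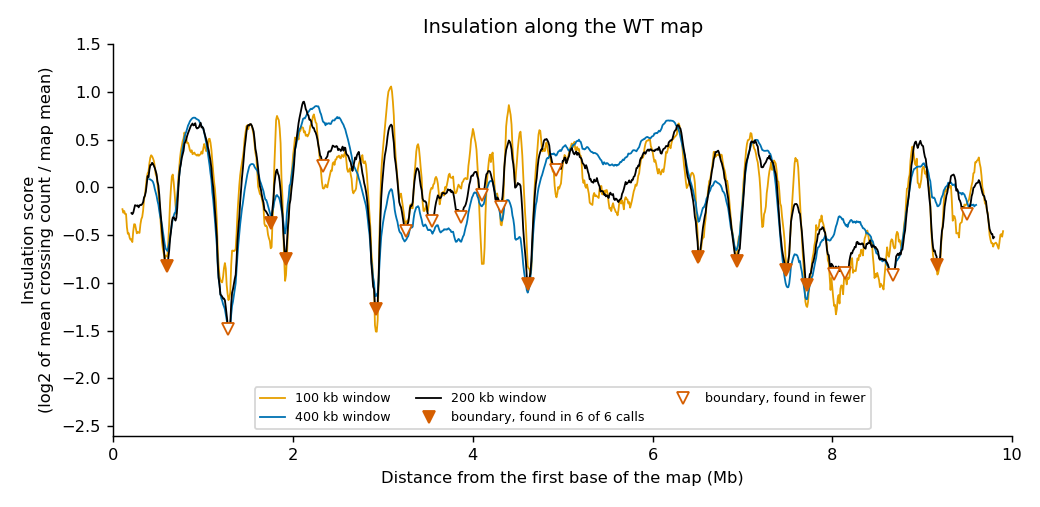
Insulation score of the WT map (log2 of the mean crossing count over the map mean) along the 10 Mb region, for windows of 100 kb, 200 kb and 400 kb, with triangles at the 22 boundaries, filled where all 6 calls found them. The lowest score, -1.48, was at the boundary after 72280000, and the 10 filled triangles include those at both ends of the stretch from 75610001 to 77510000.

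At the boundary after 73920000 the map was divided most sharply at short range: 4956 counts crossed it in the windows used, or 0.327 (0.317 to 0.337) of the level within its flanks for the same distances. This ratio was 0.451 (0.440 to 0.462) after 72920000, 0.457 (0.445 to 0.469) after 75610000 and 0.474 (0.460 to 0.489) after 72280000. The median over the 22 was 0.647, and 21 lay under 1, or 20 with coverage matched. The exception on both scales was the boundary after 79140000, at 1.02 (0.991 to 1.05), where counts crossed as often as they stayed. The positions were chosen as minima of crossing counts, so ratios under 1 describe the choice.

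Contacts over each boundary were also read from longer pairs that the 200 kb window holds few of. The median domain size was 330 kb, so pairs over 500 kb often cross several boundaries, and neighbouring boundaries share pairs. The level of such pairs cannot be credited to a single boundary. Contacts across the boundary after 72280000 stood at 0.397 of the decay at 20 kb to 200 kb, at 0.349 at 200 kb to 500 kb, at 0.437 at 500 kb to 1 Mb and at 0.471 at 1 to 2 Mb. The boundary after 73920000 had 0.401, 0.473, 0.511 and 0.656 over the same ranges, and that after 75610000 had 0.552, 0.474, 0.480 and 0.588. Contacts across these 3 were thus low at every distance up to 2 Mb, and with coverage matched they lay between 0.374 and 0.684. This was not particular to them: at a level of 0.7, set after the values were seen, 5 boundaries were low at all 4 distances, the others being those after 78480000 and 78720000 (78480000 and 77940000 with coverage matched). At 1 to 2 Mb the lowest values belonged to shallow boundaries, 0.363 after 74870000, 0.368 after 75100000, 0.382 after 75310000 and 0.398 after 74550000. The boundary after 77510000 was of another kind, at 0.613 for the shortest pairs but 0.860, 1.08 and 1.40 for the longer ones, so that contacts over 500 kb crossed it above the decay. With coverage matched they were at 0.448, 0.653, 0.859 and 1.25, and only those over 1 Mb were above it. The boundary after 73330000 was crossed at 1.09, 1.69, 1.99 and 1.01, or 0.921, 1.36, 1.73 and 1.02 with coverage matched, which makes it a shallow step inside a larger contact field. The boundary after 75930000 was crossed at 1.05, 1.32, 1.16 and 1.48, but with coverage matched at 0.755, 0.9498, 0.982 and 1.34, so the direction under 1 Mb depended on the coverage. Over all 22, contacts at 1 to 2 Mb were under the decay at 18 (14 with coverage matched) and at or under 0.667 of it at 11 (10 with coverage matched).

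Domains had a median size of 330 kb and ran from 120 kb to 1580 kb. The largest was domain 14, from 75930001 to 77510000, then domain 2, from 71600001 to 72280000 (680 kb), and domain 1, from 71000001 to 71600000 (600 kb), whose outer end is the end of the map. Observed over expected inside domains ran from 0.419 to 1.59 with a median of 1.09, and 16 of the 23 domains were over 1. The densest were domain 5, from 72920001 to 73330000, at 1.59 (1.58 to 1.60, 93999 counts), domain 4, from 72750001 to 72920000, at 1.42 (1.41 to 1.44), and domain 7, from 73920001 to 74250000, at 1.41 (1.40 to 1.42). The least dense adjoined each other: domain 19, from 79020001 to 79140000, at 0.419 (0.404 to 0.434, 2978 counts), domain 20, up to 79670000, at 0.625 (0.620 to 0.631), and domain 18, from 78720001, at 0.684 (0.675 to 0.692).

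This order followed the coverage of the bins. Over the 23 domains the rank correlation between density and the mean coverage factor was 0.80, a description over domains of a single library that share its depth, and with domain size it was 0.11. With coverage matched the range narrowed to 0.902 to 1.59 with a median of 1.15, 20 domains were over 1, and the rank correlation with the coverage factor was -0.33. Domain 5 then stood at 1.13 and domain 4 at 1.19, while domains 18, 19 and 20 stood at 1.07, 1.07 and 1.04. Domain 7 kept a high value at 1.45, and the highest were domain 8, from 74250001 to 74550000, at 1.59, domain 11, from 75100001 to 75310000, at 1.56, and domain 9, from 74550001 to 74870000, at 1.47. Domains 7 to 12 held the 6 highest coverage-matched densities, between 1.34 and 1.59. With balanced values domains 7 and 8, at 1.31 and 1.32, were the highest, and domain 1, at 1.305, stood above domains 9 to 12. Domain 14 was at 1.378 (1.374 to 1.382, 532639 counts) on the decay alone and at 1.03 with coverage matched.

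**Figure D3:**
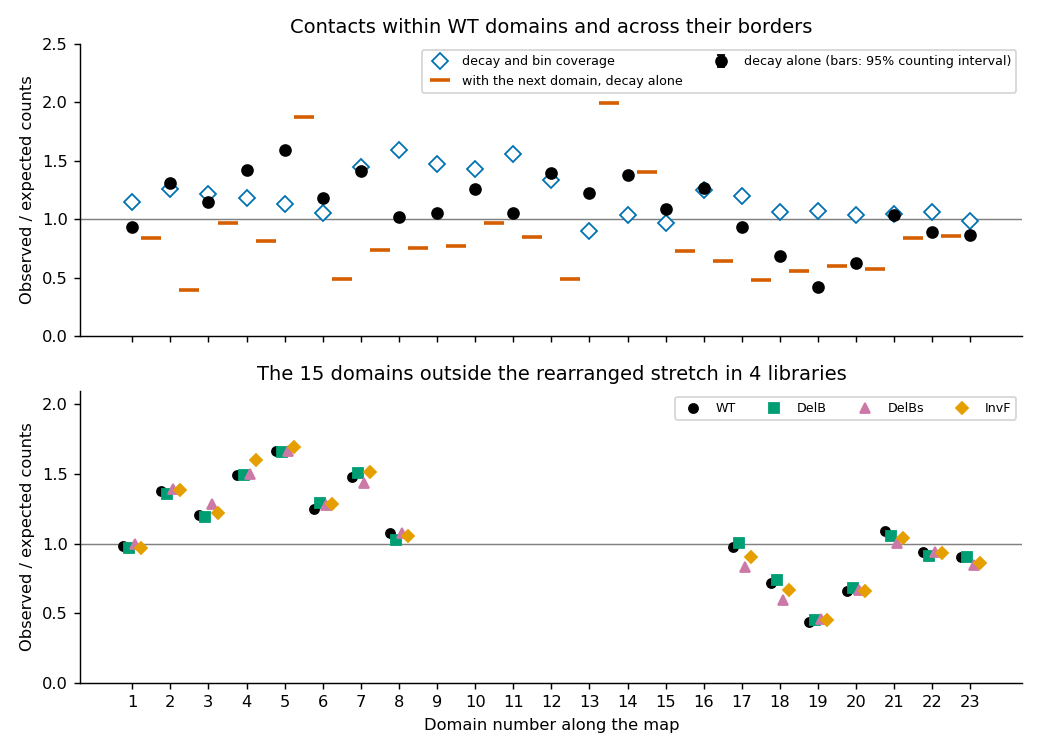
Observed over expected counts within each of the 23 WT domains, over the decay alone (black, bars show the 95% counting interval and are mostly smaller than the points) and over decay and bin coverage (blue diamonds), with short bars for contacts between each domain and the next; below, the 15 domains outside the rearranged stretch in the 4 libraries, each over its own decay on those pairs. Black points fall to 0.419 at domain 19 where the diamond is at 1.07, and in the lower panel the 4 libraries follow each other closely, with the widest gaps at domains 17 and 18.

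Contacts within domains were set against contacts between adjoining domains at the same distance, since a domain holds mainly short pairs. At 20 kb to 50 kb the ratio of the observed over expected values was 1.60 (1.58 to 1.62), at 60 kb to 100 kb 1.61 (1.60 to 1.63), at 110 kb to 200 kb 1.66 (1.65 to 1.67) and at 210 kb to 300 kb 1.72 (1.71 to 1.74). It was 1.83 (1.82 to 1.85) at 310 kb to 500 kb, where 15 domains are long enough to count, and 1.805 (1.79 to 1.82) at 510 kb to 680 kb, where 6 are. With coverage matched the ratios were 1.40, 1.44, 1.52, 1.57, 1.63 and 1.47, so they were lower but above 1 at each distance. The domains were drawn between minima of crossing counts in this same map, so ratios above 1 in part describe that choice. Pooled over all distances, without setting equal distances against each other, the ratio was 1.259 (1.256 to 1.262), from 1.17 within and 0.927 between. Pairs within a domain made up 5.95% of the pairs from 20 kb on and held 54.2% of their counts, where the decay gives 46.5%. Adjoining domains held 22.6% (24.4% by the decay) and domains further apart 23.2% (29.1%).

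A raised corner, where the first 50 kb of a domain meets its last 50 kb, was measured in the 21 domains of at least 200 kb. The highest was in domain 14, at 6.24 times the decay (5.79 to 6.72, 710 counts) and 4.58 with coverage matched, at the ends of its 1580 kb. Domain 16, from 77940001 to 78480000, followed at 4.65 (4.45 to 4.86, 1973 counts) and 4.25 with coverage matched, and domain 5 at 3.48 (3.33 to 3.64) and 2.54. The median of the 21 was 1.32, and the corner was above the mean of its whole domain in 13, or in 18 with coverage matched. The corner holds the longest pairs of a domain, and these 2 levels were not matched for distance. Over all domains, same-domain observed over expected rose from 1.03 at 20 kb to 50 kb to 1.89 at 510 kb to 680 kb. A corner above its domain mean therefore does not by itself show a spot. The lowest was that of domain 3, from 72280001 to 72750000, at 0.756 (0.681 to 0.837), although with coverage matched it was 1.40.

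Domains were nested. With the window widened to 400 kb there were 17 boundaries and 18 larger domains, and 9 of the 23 domains lay together in 4 of them: domains 5 and 6 from 72910001 to 73920000, domains 10 and 11 from 74810001 to 75320000, domains 18, 19 and 20 from 78710001 to 79670000, and domains 22 and 23 from 80170001 to the end of the map. Of the rest, 12 were the only complete domain in a larger one and 2 ran across a larger border. These were domain 9 and domain 14, which the wide window split after 76570000. With a window of 100 kb there were 25 boundaries, 17 of the 22 had a match within 50 kb, and 8 further ones appeared inside domains, among them that after 77090000 in domain 14. The 1580 kb of domain 14 thus held a step seen with the wide window and another with the narrow window, and neither was a boundary with the 200 kb window.

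Neighbours were also joined step by step, each time at the border with the highest contacts across it relative to the level within its flanks. The first to join were domains 13 and 14, at a border ratio of 1.53, then domains 5 and 6 at 1.37, and then domain 15 joined 13 and 14 at 1.28, which made a unit of 2330 kb from 75610001 to 77940000. Domains 19 and 20 joined at 1.18, and domain 18 joined them at 1.44. With coverage matched these borders had ratios of 1.52, 1.39, 1.23, 1.21 and 1.56. Later, domains 22 and 23 joined at 0.977 and domains 10 and 11 at 0.842. All 4 groups of the 400 kb window were thus found by both routes. That window kept the border after 77510000, however, and did not join domain 15 to domains 13 and 14. A border ratio over 1 means that observed over expected across the border exceeded that within the units it joins. Both levels were taken over whole units, so the distances across and within were not matched. For the same distances within 200 kb, contacts crossed at 0.848 of the level within after 75930000 and at 0.853 after 73330000. They crossed at 0.601 after 77510000, 0.853 after 79020000 and 1.02 after 79140000. The last borders to be joined were those after 78480000 (0.622), 74250000 (0.596), 74870000 (0.573), 73920000 (0.620) and, as the final step, 72280000 (0.543). With coverage matched their ratios were 0.659, 0.615, 0.587, 0.655 and 0.547.

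Domains 13, 14 and 15 formed a common contact field. Its pairs stood at 1.429 times the decay (1.426 to 1.432, 908682 counts), or 1.09 with coverage matched. Domain 13, from 75610001 to 75930000, met domain 14 at 1.99 times the decay (1.98 to 2.00, 126604 counts), and domain 14 met domain 15, from 77510001 to 77940000, at 1.40 (1.39 to 1.41). Of the 22 borders between adjoining domains, only these and the border between domains 5 and 6, at 1.88 (1.86 to 1.89), were over 1 on the decay alone, and 8 were with coverage matched. The lowest was between domains 2 and 3, at 0.399 (0.393 to 0.404). Domains 13 and 15, which the 1580 kb of domain 14 keep apart, met at 5.43 times the decay (5.36 to 5.50, 21797 counts) and at 4.36 with coverage matched, the highest of all 230 pairs of domains that do not adjoin and have at least 100 expected counts.

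Over those 230 pairs the median was 0.860, and 0.960 with coverage matched. There were 19 pairs (8.26%) at 1.5 times the decay or more, and 17 of them stayed there with coverage matched. With coverage matched 26 pairs reached it in all. Over all blocks of 100 kb, within and between domains, the share was 12.4%. After domains 13 and 15 came 12 and 15 at 3.26 (3.19 to 3.33, 8632 counts), 13 and 16 at 2.87 (2.81 to 2.94), 12 and 16 at 2.67 (2.60 to 2.74) and 4 and 6 at 2.48 (2.45 to 2.51). With coverage matched these were 2.97, 2.43, 2.57 and 2.17. The first 4 of the 5 highest pairs join the flanks of the large domain 14 over 1.96 to 2.75 Mb between centres, and the other joins domains on either flank of domain 5.

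Some raised contacts were far longer. Domain 17, from 78480001 to 78720000, was part of 7 of the 19 high pairs and domain 16 of 6 (10 and 6 of the 26 with coverage matched), and their medians over 20 pairs each were 1.33 and 1.33. Domain 17 met domain 3 at 1.75 times the decay (1.64 to 1.86, 925 counts) although their centres lie 6.09 Mb apart, and domain 2 at 1.56 (1.47 to 1.66) over 6.66 Mb. It also met domain 21, from 79670001 to 80170000, at 1.76 (1.73 to 1.79, 11273 counts) over 1.32 Mb, where it met the domains between at 0.484, 0.442 and 1.004 (18, 19 and 20). With coverage matched the 3 values with domains 3, 2 and 21 were 2.07, 1.74 and 2.00, and those with domains 18, 19 and 20 were 0.659, 0.808 and 1.47.

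Depleted pairs were the larger group, 72 of the 230 (31.3%) at 0.667 of the decay or less, against 32.3% of the blocks of 100 kb. With coverage matched 45 of the 72 stayed at that level and all 72 were under 1. The lowest was domain 8 with domain 13, at 0.226 (0.213 to 0.239, 1159 counts), followed by 11 and 13 at 0.248 (0.238 to 0.258), 6 and 11 at 0.262 (0.249 to 0.276), 16 and 19 at 0.273 (0.259 to 0.287) and 9 and 13 at 0.280 (0.268 to 0.292). The coverage-matched values were 0.242, 0.257, 0.308, 0.436 and 0.283. Domains 11 and 13 are separated by the 300 kb of domain 12 alone, so a low level did not need a long distance. Domain 19 was in 14 low pairs of its 19, and domains 8 and 11 in 12 of 20 each. With coverage matched these counts were 3 for domain 19, 9 for domain 8 and 5 for domain 11, so domain 19 no longer stood out.

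**Figure D4:**
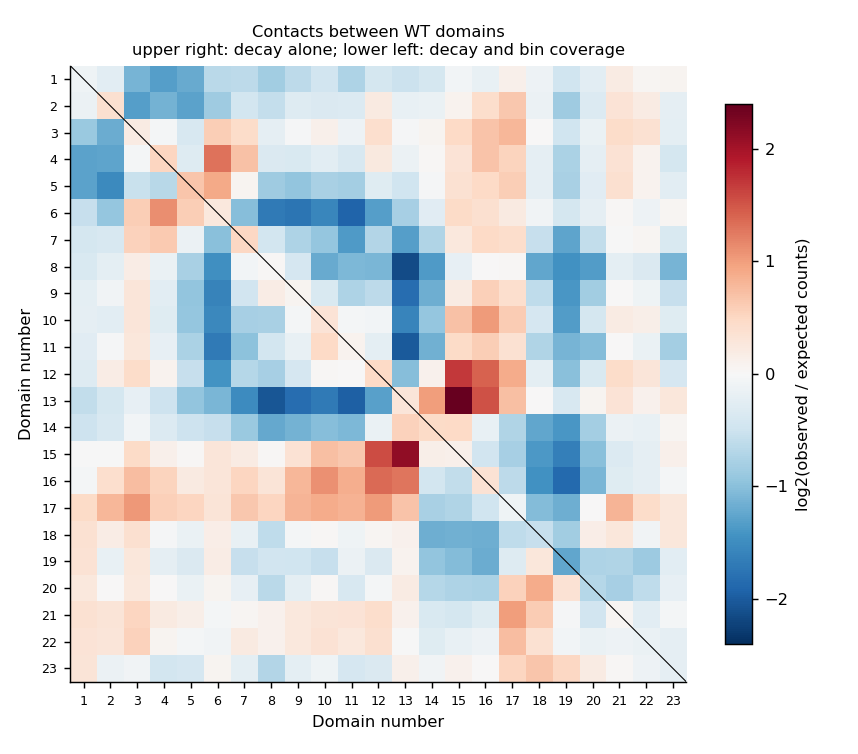
Observed over expected counts for every pair of the 23 WT domains on a log2 colour scale, over the decay alone above the diagonal and over decay and bin coverage below it, with domain numbers on both axes. Domain 13 is dark blue with domains 8 to 11 and dark red with domain 15, and the columns of domains 16 and 17 are pale red over most of the map.

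The low and high pairs formed blocks, which were summed after their values had been seen. Domains 8 to 12, from 74250001 to 75610000, met domain 13 just beyond their border at 0.383 times the decay (0.378 to 0.388), domain 14 at 0.682 (0.677 to 0.687), and domains 15 and 16 on its far flank at 1.89 (1.87 to 1.91, 28898 counts). With coverage matched the 3 values were 0.346, 0.645 and 2.00. In these sums the sequence nearest to the boundary after 75610000 was thus the most depleted. The sequence from 1900 kb beyond that boundary was contacted above the decay, but not evenly over the block. Domain 12 met domains 15 and 16 at 3.26 and 2.67, and domain 8 met them at 0.869 and 1.005 (1.02 and 1.24 with coverage matched). The domains between domains 8 and 12 met them at 1.15 to 2.02. Domain 12 also met domain 14 at 1.07 (0.901 with coverage matched), and the other domains of the block met it at 0.392 to 0.526. On the upstream part of the map, domains 3 to 5 met domain 6 at 1.87 (1.86 to 1.88), domain 6 met domains 7 to 12 at 0.396 (0.392 to 0.4001), and domains 1 and 2 met domains 3 to 6 at 0.443 (0.440 to 0.447). Downstream, domains 13 to 16 met domains 17 to 20 at 0.514 (0.511 to 0.518), and 13 to 15 met domain 16 at 0.867 (0.861 to 0.873). With coverage matched these 5 were 1.60, 0.418, 0.453, 0.591 and 0.758. The lowest sums thus lay between domains 1 and 2 and domains 3 to 6, between domains 6 and 7 to 12, and between domains 8 to 12 and 13. Domains 13 to 16 with 17 to 20 were also low as a sum, but unevenly. Domain 16 met domain 19 at 0.273, whereas domain 13 met domain 17 at 1.66. Domain 16 met domains 13 to 15 at a level nearer to the decay.

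Stripes were sought as bins whose balanced contacts with partners 50 kb to 500 kb away on a flank exceeded those of the rows 30 kb to 50 kb to each side. At a ratio of 1.5 over the mean of those rows there were 8 stripe bins after neighbours were merged, 3 running upstream and 5 running downstream, from 0.636% and 0.847% of the bins tested. On a simulated map this rule also marked strong boundaries that held no stripe. A second rule, added after this had been seen, asked for 1.3 over the rows on each side taken separately. It gave 14 stripe bins, 6 upstream and 8 downstream, from 0.955% and 1.27% of the bins tested, and 7 of them were shared with the first rule.

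The highest stripe ran downstream from 73940001, at 2.02 times its neighbouring rows, 20 kb inside the boundary after 73920000. It stood at 2.88 times the rows on its upstream side and 1.54 times those on its downstream side, and 100% of its partners were above the neighbours. Its bin had 0.544 of the median coverage, and in counts the ratio was 1.27. Next came the downstream stripes from 72920001 at 1.74, 75650001 at 1.56, 80180001 at 1.55 and 72760001 at 1.51. The bin at 80180001 rests on balancing, as its coverage was 0.224 of the median and its ratio in counts was 0.436. The highest upstream ratios were at 72890001 (1.73), 75460001 (1.66), 72160001 (1.51), 80500001 (1.48) and 78410001 (1.39), the last 2 being under the limit of 1.5. The stripe from 75460001 was almost equal over the rows on its upstream and downstream sides, at 1.60 and 1.72, whereas that from 72890001 was at 1.39 and 2.30. By the second rule the peak of the latter moved by a bin, to 72880001. The bin at 80500001 was called by the second rule alone, and that at 78410001 by neither rule.

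Most stripe bins lay near boundaries, and most of those ran from the boundary towards their own domain. Partners were taken up to 500 kb away, past the end of many domains, so the ratios also hold contacts with other domains. Of the 14 bins of the second rule, 9 were within 50 kb of a boundary, where 24.1% of all bins lie, and 8 of the 9 were on the flank that their stripe enters. Of the 8 downstream stripes 7 started in the upstream part of their domain, and of the 6 upstream stripes 4 started in the downstream part. In the opposite direction the ratio was under 1 in 10 of the 12 bins where it could be measured. Near a boundary, however, some of the neighbouring rows lie across it, which can lower this ratio without a stripe. The count therefore cannot show that stripes ran to a single flank. Domain 4, from 72750001 to 72920000, and domain 12, from 75310001 to 75610000, each held a downstream stripe near their upstream end and an upstream stripe further on, which in domain 4 lay near the downstream end and in domain 12 just past the middle, at 75460001. These domains span 170 kb and 300 kb, so part of the partners of their stripes lay in other domains. Boundaries were called from the same counts, so a bin that is rich on a single flank can also deepen the boundary beside it. Over the 14, the ratio with coverage matched ran from 1.22 to 2.00, and in counts it was under 1 in 1.

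**Figure D5:**
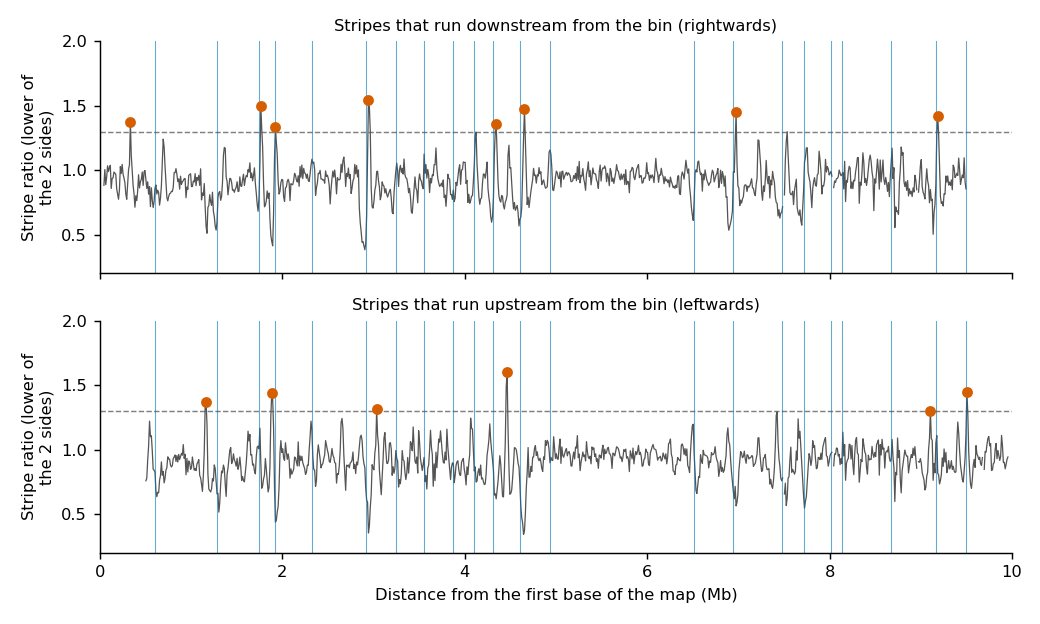
Stripe ratio along the WT map, taken as the lower of the ratios to the upstream and downstream rows, for stripes that run downstream (upper panel) and upstream (lower panel), against distance from the first base of the map in Mb, with the 22 boundaries as vertical lines and the limit of 1.3 dashed. The 14 marked bins reach 1.302 to 1.60, and 9 of them lie within 50 kb of a boundary.

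The mutants gave 3 further libraries for the parts of the map that no allele rearranges, 3830 kb upstream and 2940 kb downstream. Pairs of bins on the same side made up 116901 pairs, or 23.4% of the map. Over 4759 blocks of 50 kb, the log2 observed over expected values of WT correlated with those of DelB at Pearson's r of 0.9496 and Spearman's rho of 0.942, with DelBs at 0.948 and 0.940, and with InvF at 0.949 and 0.941. The blocks share probes and local coverage, and neighbouring blocks are not independent. A difference over 1 log2 unit from WT was found in 20 blocks of DelB (0.42%), 19 of DelBs (0.399%) and 27 of InvF (0.567%).

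Domain densities returned closely. The 15 domains outside the stretch had mutant to WT ratios of 0.953 to 1.04 in DelB, 0.833 to 1.06 in DelBs and 0.922 to 1.07 in InvF. On the decay alone domain 5 was the densest of the 15 in each library, at 1.67 (WT), 1.66 (DelB), 1.66 (DelBs) and 1.698 (InvF). Domain 19 was the lowest in each, at 0.440, 0.451, 0.461 and 0.453. This order follows bin coverage, which the libraries can share. With coverage matched domain 5 was at 1.09, 1.09, 1.09 and 1.08, below domains 7 and 8 in each library. Domain 19 was then at 0.953, 0.937, 0.926 and 0.942, above domain 18 in each. The largest departure was domain 18 in DelBs, at 0.597 against 0.718 in WT, 0.736 in DelB and 0.666 in InvF. With coverage matched it was 0.916 against 0.924 in WT.

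The boundary positions were chosen on the WT map, and the mutant libraries were not used in that choice. Of the 15 boundaries outside the stretch, 13 had a match within 50 kb in each mutant, and the 2 without a match, after 73330000 and 79140000, were the same in all 3 and had WT depths of 0.22 and 0.24. The median difference in depth from WT, sign left aside, was 0.04 in each mutant. Contacts crossing were under the level within in 14, 13 and 14 of the 15. At the boundary after 73920000 the crossing ratio was 0.327 (WT), 0.322 (DelB), 0.337 (DelBs) and 0.328 (InvF), and after 72280000 it was 0.474, 0.500, 0.446 and 0.478. The largest departures from WT over the 15 were 0.040, 0.11 and 0.086. Same-domain contacts at 110 kb to 200 kb exceeded those of adjoining domains by 1.73 (WT), 1.68 (DelB), 1.68 (DelBs) and 1.73 (InvF) times.

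Of the 10 stripe bins of the second rule outside the stretch, DelB had 7 at 1.3 or more, DelBs 6 and InvF 8, and 6 passed in all 3. The downstream stripe from 73940001 was at 2.02 (WT), 1.94 (DelB), 1.89 (DelBs) and 1.91 (InvF) times the neighbouring rows. The lowest value of the 10 in any mutant was 1.16. Of 36 pairs of domains that do not adjoin and lie on the same side, 33 were on the same side of 1 in the 4 libraries, with mutant to WT ratios between 0.915 and 1.16. Domains 4 and 6 met at 2.71 (WT), 2.76 (DelB), 2.76 (DelBs) and 2.82 (InvF) times the decay, domains 17 and 21 at 2.08, 2.06, 1.95 and 2.03, and domains 6 and 8 at 0.334, 0.376, 0.387 and 0.366. These levels differ from the ones above because the decay was taken over the pairs outside the stretch alone. The pattern of domains 13 to 16, all of them wholly or partly inside the stretch, could not be checked in this way. That pattern, the contacts of domains 9 to 12 and all pairs that span the stretch, such as domains 2 and 3 with domain 17, rest on the WT library alone.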

How the data were processed

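In the deposited raw maps each pair of 10 kb bins has a whole-number count of ligated read pairs, filtered by the authors at mapping quality 30 per the file names. The deposited balanced maps hold a signal per pair, made by the authors with KR balancing per the file names. Reads were mapped with Bowtie2 2.2.6 to mm9, per the submitters' processing notes. Removal of PCR duplicates was not stated in the sources used here. The deposited difference maps were not used here. Of the columns, 0 were left without a sample.

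Computing used Python 3.11.15, numpy 2.4.6, scipy 1.17.1, pandas 2.3.3 and matplotlib 3.10.9. Insulation, domains and domain pairs used counts at 20 kb or more, and stripes used balanced values. Boundaries were the lowest score within 100 kb, a spacing set after the data had been seen. The bin factors were found in 200 iterations. Intervals are exact Poisson or conditional binomial, at 95%. The values named in full were set by rule. They are the 5 deepest boundaries, the 3 densest, least dense and largest domains and the 5 highest stripe ratios each way. The rule also named the 5 highest and lowest domain pairs and the ends of the joining order. Others were chosen after their values were seen. The members, lists and rules were chosen with earlier results of these data known. The alternatives were other windows, depths, distances, folds and decays, and coverage matching was added after the data had been seen.

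A single simulated map of 1000 bins was drawn. The boundary rule found 7 of 7 borders crossed at 0.4 of the level within and 6 of 6 at 0.7. At 0.85 it found 1 of 6, and there were 0 false calls. The first stripe rule found 4 of 12 stripes of 2-fold and made 12 false calls among 16. The second found 12 of 12 with 0 false among 12. The simulated stripes lay in the middle of domains and coverage-matched values stood in for balanced ones. Whether the second rule finds stripes beside a boundary was thus not tested. A simulated same-domain ratio of 1.58 was recovered as 1.51.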

Additional observations from a re-analysis of the deposited data

How the results depend on the processing

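With a required depth of 0.4 there were 12 boundaries in place of 22 and 2 nested domains in place of 9; the other settings tried for the number of boundaries gave 17 to 25. The pooled ratio of contacts within domains to those between adjoining ones, 1.259, was 1.22 with balanced values, 1.22 with the 400 kb window, 1.102 with the 100 kb window, 1.41 at a depth of 0.4, 1.33 from 50 kb on, 1.13 with a median decay, 1.264 without the filter on thin bins and 1.19 with coverage matched. The 8 stripe bins became 69 in counts, 26 at a ratio of 1.3 and 14 by the second rule. The 19 high pairs of domains became 6 at 2-fold and 44 with a median decay. Correlations with DelB, DelBs and InvF were 0.935, 0.942 and 0.938 with balanced values, 0.973, 0.974 and 0.976 with blocks of 100 kb, and 0.897, 0.896 and 0.891 with blocks of 20 kb.

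The density of domain 1 passed from under to over 1 with balanced values (1.305), a median decay (1.01) and coverage matched (1.15), and that of domains 18, 19 and 20 did so with coverage matched (1.07, 1.07 and 1.04). Of the other single values, 35 settings of domain density and 27 of domain pairs moved beyond their counting interval with no change of direction, and 4 and 23 did not. The depths of the 5 deepest boundaries moved by 0.1 or more in 10 settings and by less in 10. The cause was not tested. Depth limits pairs beyond 1 Mb, where a pair of bins holds a few counts. Borders crossed at 0.85 of the level within were mostly missed in simulation, where 1 of 6 was found. No paired analysis was possible because each genotype had 1 library and the labels give no replicate numbers.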
